A study of Mus musculus with 14 samples.

Results

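Replicate 2 of the control-hairpin spheroids was a pair of mRNA libraries, 1 grown with aspartate (ASP shSCR) and 1 without (NoASP shSCR), out of 14 libraries in all. Both carry the replicate number 2 in the sample descriptions, and they were chosen from their measured expression, as libraries that lay away from the other control libraries on a principal component of all genes. They are set here against the 5 other shSCR libraries, replicates 1, 3 and 4 of ASP shSCR and replicates 3 and 4 of NoASP shSCR. Because expression itself picked the 2 libraries, their differences from the 5 others are given as a description, with no test.

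All libraries came from the established line 4T1, derived from a triple-negative mammary tumor of a mouse and grown on soft agar as spheroids, which are small multicellular aggregates. Culture lasted 5 days in LLM, a medium made to resemble the nutrient content of the lung. The 7 control libraries shared a scrambled hairpin (shSCR). Of these, 4 had 700 µM aspartate in the medium (ASP shSCR) and 3 had none supplied (NoASP shSCR). Cells with a hairpin against Grin2d (ASP shGRIN2D, 3 libraries) or Dhps (ASP shDHPS, 4 libraries) grew with aspartate only. RNA was taken from the cytosolic lysate that had served as the input of polysome profiling. The labels do not say what a replicate number stands for, so a shared culture, plating or collection of both replicate 2 libraries cannot be told apart from other sources of their likeness.

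In cells short of oxygen, the prolyl hydroxylases that mark HIF-1α for destruction are less active, and the stabilized factor binds DNA with its partner ARNT at sites with the core ACGTG. Its targets move cells toward glycolysis, mitophagy and collagen modification, and they include the prolyl hydroxylases themselves as feedback. NF-κB is held in the cytoplasm by IκB proteins and, once released, induces cytokines, acute-phase proteins and its own inhibitors. Large spheroids are known for an oxygen-poor interior, since oxygen reaches the inner cells only by diffusion.

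The libraries were of ordinary depth. Total counts were 17627407 in replicate 2 of ASP shSCR and 18242548 in replicate 2 of NoASP shSCR, within the range of 12731123 to 23231378 over all 14 libraries. Mitochondrially encoded genes took 4.53% and 4.71% of the counts in the 2 libraries and 4.94% to 6.15% in the 5 others, and the 20 most abundant genes took 9.95% and 10.1% against 10.3% to 12.2%. Both shares were thus lowest in replicate 2, and their part in the results below was not tested. Dhps lay at 5.46 to 9.08 CPM (that is, counts scaled to a common library size with TMM factors) in ASP shDHPS and at 16.7 to 23.8 CPM in the other 10 libraries, so the labels held for this gene. Grin2d lay at 2.06 to 3.13 CPM in ASP shGRIN2D and at 2.21 to 6.95 CPM elsewhere, which overlapped, and could not check the labels.

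On the first principal component of the 7 shSCR libraries (44.6% of the variance), replicate 2 lay at 24.1 with aspartate and at 15.2 without, while the 5 others lay between -16 and -3.6. Over genes, log2 CPM of the 2 libraries correlated at r = 0.9906, above each of the 10 values of a replicate 2 library with another shSCR library (0.9693 to 0.9868) and within the range among the 5 others (0.9816 to 0.9913). They were not 1 library deposited under 2 names, since their counts differed by a chi-square of 6.88 per degree of freedom. This was the lowest value of any pair of shSCR libraries. It was 13.8 to 36.5 for replicate 2 with another library and 8.21 to 30.8 among the 5 others.

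To describe the state gene by gene, the difference between replicate 2 and the mean of the other replicates was taken in log2 CPM within ASP shSCR and within NoASP shSCR, and both were averaged. A gene was counted as higher when its mean over the 7 libraries reached 5 CPM, both replicate 2 libraries lay above all 5 others and it was at least 1.5-fold higher within each group, and as lower by the same rule downward. Of 10233 genes with at least 5 CPM, 168 were higher (1.64%) and 59 were lower (0.577%). Without the fold threshold, 2141 genes lay above all others in both libraries (20.9%) and 1877 below (18.3%). At the edge of the rule, C3 (1.83-fold with aspartate and 1.5-fold without) and Sesn3 (1.5-fold and 1.64-fold) were just inside, while Trp53inp1 (1.5-fold and 1.54-fold) was just outside before rounding.

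**Figure D1:**
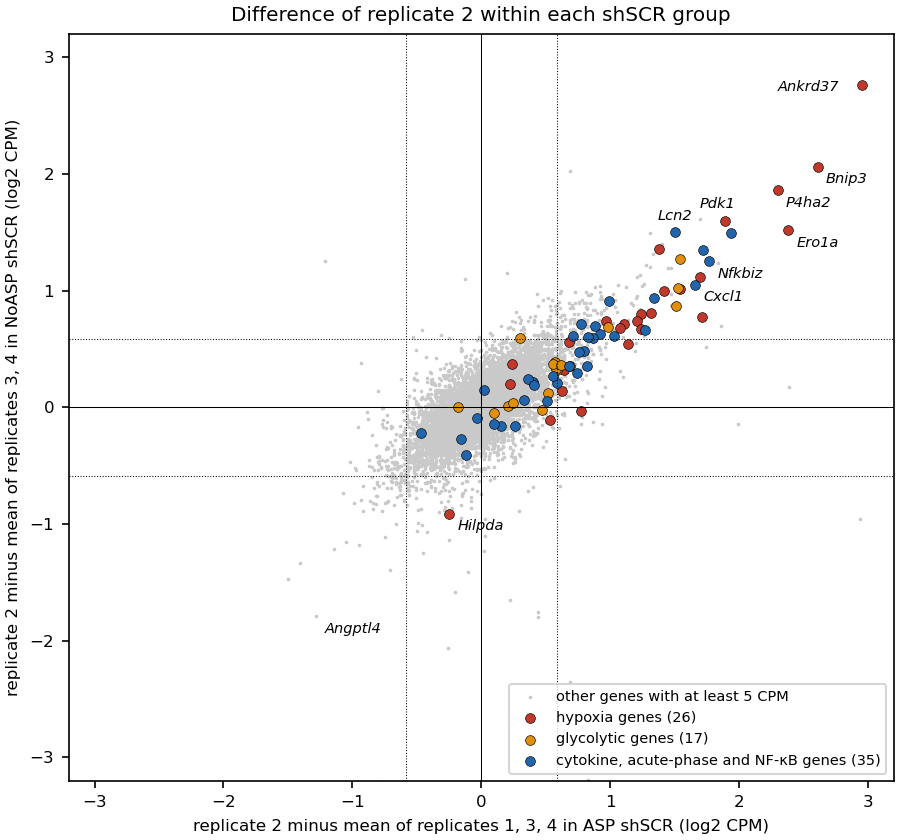
Difference of replicate 2 from the other replicates in log2 CPM, within ASP shSCR (x axis) and within NoASP shSCR (y axis), with 1 point per gene of at least 5 CPM and dotted lines at 1.5-fold (6 genes lie outside the plotted range). Hypoxia genes reach the upper right corner with Ankrd37 at 2.95 and 2.76, cytokine, acute-phase and NF-κB genes follow, and Angptl4 lies at the lower left.

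The rule asks for 1.5-fold in both groups, which draws the differences with and without aspartate together. The median fold of the 168 higher genes was 1.87 in ASP shSCR and 1.75 in NoASP shSCR, and that of the 59 lower genes was 0.611 and 0.618. For 113 of the 168 higher genes the difference was larger with aspartate, as was the fall for 33 of the 59 lower genes. Relative to the 5 others, the hypoxia genes described below had a median of 1.2 with aspartate and 0.75 without. Type I interferon response genes had medians of 0.42 and 0.38. Over the 10233 genes, both within-group differences correlated with r = 0.589. These points share the library pairs and genes are not independent, so the values only describe the scatter of both differences.

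Genes known to be induced by hypoxia held the largest upward differences once predicted genes were left out. Of 26 measured members of a hand-written list of hypoxia genes, 17 were higher (65.4%, against 1.64% of all genes) and 0 lower. The median difference was 0.97 on the log2 scale, against 0 over all genes. A positive difference was found for 25 of the 26, with Hilpda as the exception. The list did not hold Angptl4 and Plin2, also known targets of hypoxia, which lay below all 5 others (differences of -1.54 and -0.63). In the deposited Hallmark hypoxia set, 27 of 148 measured genes were higher (18.2%, against 1.64% of all genes) and 1 was lower (0.676%, against 0.577%). The median difference of this set was 0.21, the highest of the 50 Hallmark sets.

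Ankrd37 (ENSMUSG00000050914), an ankyrin-repeat protein gene induced by HIF-1, measured 26.3 CPM in replicate 2 of ASP shSCR and 16.9 CPM in replicate 2 of NoASP shSCR. It measured 3.85, 3.38 and 2.75 CPM in ASP shSCR replicates 1, 3 and 4, and 2.8 and 2.06 CPM in NoASP shSCR replicates 3 and 4 (mean of the 5, 2.97 ± 0.68, SD). The lower of the 2 libraries stood several times above the highest of the 5 others, and the difference was 7.75-fold with aspartate and 6.76-fold without. Bnip3 (ENSMUSG00000078566), a receptor for mitophagy on the outer mitochondrial membrane, measured 205 and 127 CPM in the 2 libraries against 36.5, 32.4, 31.4, 33.1 and 27.9 CPM in the 5 others, in the same order of libraries. The 5 others spread little (32.3 ± 3.1 CPM, SD) and replicate 2 was 6.12-fold and 4.17-fold higher. Ero1a (ENSMUSG00000021831), the ER oxidase that regenerates protein disulfide isomerase, measured 553 and 297 CPM against 105, 112, 102, 98.8 and 108 CPM. Its 5.21-fold difference with aspartate and 2.88-fold difference without were the least alike of these genes.

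The windows around the starts of Ankrd37 and Bnip3 are shown because these genes led the list and hold the HIF core motif. Each window of 300 bases spans a transcription start in RefSeq and lies mostly before it (build GRCm38.p6, whereas the counts were made on GRCm39), 5′ to 3′ on the gene's strand, and capitals mark ACGTG on either strand. Ankrd37 lies at chr8:45999801-46000100 on the minus strand and holds the motif at 2 places. Bnip3 lies at chr7:138909457-138909756 on the minus strand, where the capitals mark the palindrome CACGTG, which holds ACGTG on both strands and is also the E-box read by MYC and related factors.
Ankrd37: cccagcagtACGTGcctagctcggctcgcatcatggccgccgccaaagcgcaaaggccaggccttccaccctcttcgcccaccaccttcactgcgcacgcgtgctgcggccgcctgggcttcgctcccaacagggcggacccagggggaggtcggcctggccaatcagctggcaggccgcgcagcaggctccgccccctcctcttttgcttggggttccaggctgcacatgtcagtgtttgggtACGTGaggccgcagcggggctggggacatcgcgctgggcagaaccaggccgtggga
Bnip3: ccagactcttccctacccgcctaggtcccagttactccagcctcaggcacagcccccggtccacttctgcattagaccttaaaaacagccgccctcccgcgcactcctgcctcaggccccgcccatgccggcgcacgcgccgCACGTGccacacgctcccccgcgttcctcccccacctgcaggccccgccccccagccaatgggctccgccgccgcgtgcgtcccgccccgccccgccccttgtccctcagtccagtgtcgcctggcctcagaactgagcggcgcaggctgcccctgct
Of the 17 higher hypoxia genes, 14 had a window and 12 of these held ACGTG (85.7%). The share was 33.3% among the 117 of 168 higher genes with a window, 30.9% among the 8096 of 10233 genes with at least 5 CPM and 21.8% among all 27025 promoters. Among the 40 of 59 lower genes with a window, 21 held it (52.5%), 15 of them within the E-box CACGTG. The motif was thus common in the hypoxia genes, near the background in the higher genes as a whole and above it in the lower genes, and a match does not show a bound site. The hypoxia list was hand-written from genes known to be induced by hypoxia. No share was taken for its members that were not higher, so the 85.7% cannot be credited to replicate 2.

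Further members covered the known arms of the response. Pdk1, the kinase that shuts pyruvate out of the mitochondrial citrate cycle, measured 107 and 77 CPM in replicate 2 against 23.2 to 32 CPM in the 5 others. The collagen prolyl hydroxylases P4ha2 (21.2 and 14.1 CPM against 2.95 to 5.49) and P4ha1 (173 and 125 CPM against 55.4 to 70.2) and the collagen lysyl hydroxylase Plod2 (75.1 and 51.9 CPM against 28.9 to 30.7) lay above all others. Each of these ranges was separated from replicate 2 by a clear gap. The oxygen-sensing hydroxylase genes Egln1 (242 and 182 CPM against 107 to 114) and Egln3 (215 and 163 CPM against 94.9 to 109) were higher, as was the mTORC1 inhibitor Ddit4 (308 and 248 CPM against 94.2 to 127). Adm, the vasodilator peptide adrenomedullin, missed the 5 CPM filter with 11.7 and 4.76 CPM against 0.667 to 1.32 CPM. Slc2a1, the glucose transporter GLUT1, measured 302 and 208 CPM against 134 to 153 but was 1.45-fold higher without aspartate and so outside the rule.

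Hif1a mRNA itself was not higher in replicate 2, with 160.3 and 159 CPM against 163 to 182 CPM (difference -0.11 on the log2 scale). The protein, which is regulated mainly by degradation, was not measured in these libraries. Arnt measured 69.9 and 65.6 CPM against 45.1 to 55.7 CPM, above all 5 others but under 1.5-fold. Vegfa, the angiogenic growth factor, was 1.55-fold higher with aspartate and 1.1-fold without.

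**Figure D2:**
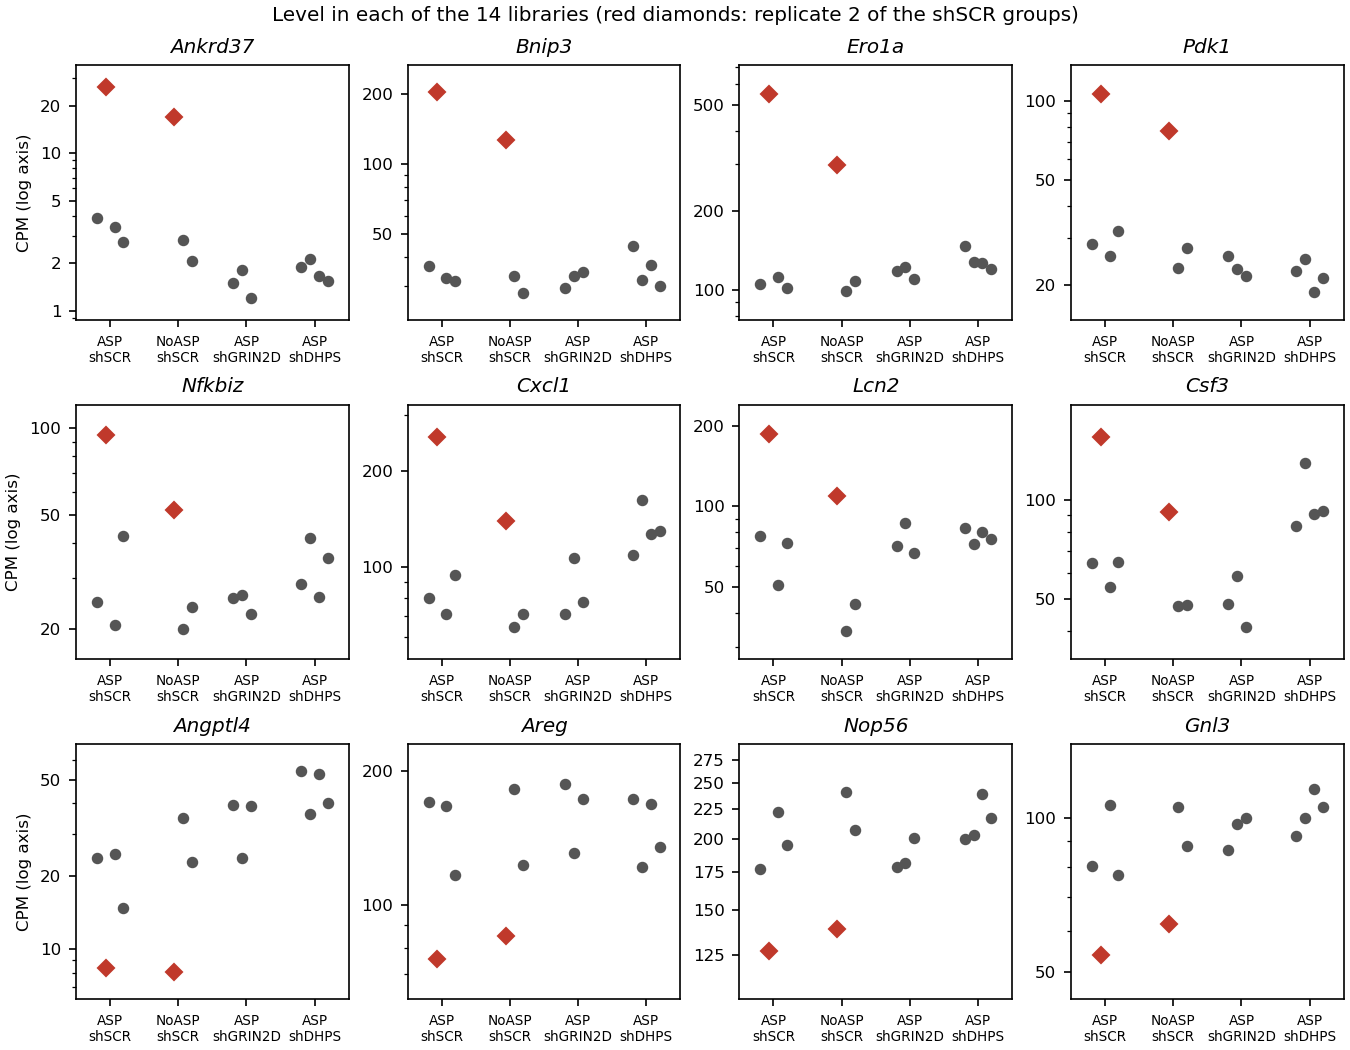
CPM on a log axis of 12 genes in each of the 14 libraries, grouped by hairpin and aspartate, with 1 point per library and red diamonds for replicate 2 of both shSCR groups. The diamonds lie above all other shSCR points for the hypoxia and NF-κB genes (Bnip3 at 205 and 127 CPM) and below them for Angptl4, Areg, Nop56 and Gnl3, while Csf3 and Cxcl1 are also higher in all 4 ASP shDHPS libraries than in the 5 other shSCR libraries.

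Glycolytic genes lay above the others in most cases, at smaller folds. Of 18 measured enzymes and transporters, 4 passed the 1.5-fold rule as higher (22.2%, against 1.64% of all genes). At any fold, 14 lay above all 5 other libraries (77.8% against 20.9% of all genes) and 0 lay below. Aldoc, an aldolase, measured 31.1 and 23.6 CPM against 9.51 to 11.6 CPM, and Pfkp, the platelet-type phosphofructokinase, 62.3 and 44.8 CPM against 20.3 to 23.3 CPM. Hk2, the hexokinase that traps glucose in the cell, measured 118 and 86.1 CPM against 33.8 to 48.8 CPM. The abundant enzymes differed less, such as Pgk1 (813 and 725 CPM against 526 to 596) and Ldha (1022 and 847 CPM against 621 to 710), although they too did not overlap. Gys1, the glycogen synthase of muscle and other tissues, measured 104 and 72.7 CPM against 36 to 41 CPM.

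The second group comprised cytokine, acute-phase and NF-κB genes. Among neutrophil-attracting and myeloid cytokines 4 of 10 measured members were higher (median difference 0.51), among acute-phase and antimicrobial genes 6 of 9 (median 0.73) and among NF-κB factors and their feedback inhibitors 5 of 16 (median 0.52). Over all genes the share of higher genes was 1.64%. No member of these lists was lower. The 6 higher members of the acute-phase and antimicrobial list included Zc3h12a, a ribonuclease, and Mmp9, a protease also counted with the matrix proteases. The spread over the 5 other libraries varied among the members, with an SD of log2 CPM of 0.43 for Nfkbiz and 0.5 for Lcn2 but 0.08 for Nfkbia.

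Nfkbiz (ENSMUSG00000035356), the nuclear IκBζ that switches on secondary NF-κB targets, measured 95.1 CPM in replicate 2 with aspartate and 51.8 CPM without, against 24.8, 20.6, 42.1, 19.9 and 23.8 CPM in the 5 others. ASP shSCR replicate 4 came nearest to replicate 2. Lcn2 (ENSMUSG00000026822), which encodes the iron-withholding protein lipocalin 2, measured 187 and 109 CPM against 77.5, 51, 73.1, 34.4 and 43.4 CPM, and within each aspartate group replicate 2 stood apart. Zc3h12a, the ribonuclease Regnase-1 that degrades cytokine mRNAs, measured 57.5 and 44.1 CPM against 12.6 to 19.6 CPM.

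Of the chemokines that draw neutrophils, Cxcl5 measured 184 and 129 CPM against 43.9 to 77.7 CPM. Cxcl1 (ENSMUSG00000029380) measured 257 and 140 CPM against 80, 70.9, 94.6, 64.5 and 71 CPM. Its promoter window is shown as an example of this group that holds the NF-κB motif (chr5:90890995-90891294, plus strand, GRCm38.p6), with capitals for GGGAANNNCC on either strand, where N is any base, and for 1 ACGTG on the opposite strand.
Cxcl1: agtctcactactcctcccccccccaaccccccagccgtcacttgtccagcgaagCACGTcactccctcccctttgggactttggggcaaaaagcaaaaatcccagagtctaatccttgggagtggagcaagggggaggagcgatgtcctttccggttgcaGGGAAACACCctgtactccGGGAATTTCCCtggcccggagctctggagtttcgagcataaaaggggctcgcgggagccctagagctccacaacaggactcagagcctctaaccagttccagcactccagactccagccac
The window held 3 matches, 2 of them overlapping. Of the 168 higher genes, 12% of those with a window held this NF-κB motif, against 8.37% of genes with at least 5 CPM and 6.59% of all promoters. Among higher list members with a window, 2 of 4 NF-κB factors and inhibitors, 1 of 2 cytokines and 1 of 5 acute-phase and antimicrobial genes held it.

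Csf3, the granulocyte growth factor G-CSF, measured 155 and 91.9 CPM against 47.7 to 64.8 CPM, and Cx3cl1, the membrane-bound chemokine fractalkine, 345 and 273 CPM against 159 to 201 CPM. The IκB genes Nfkbia (128 and 83.1 CPM against 48.3 to 55.9) and Nfkbie (45.1 and 37.6 CPM against 21.2 to 30.4) and the apoptosis inhibitor Birc3 (21.9 and 14.8 CPM against 8.23 to 12.4) were higher. The inhibitors of the pathway thus lay above the others together with its targets. Vcam1, an adhesion molecule for leukocytes, measured 79.4 and 57.2 CPM against 18 to 24.6 CPM, and Tlr2, a receptor for bacterial lipopeptides, 33.2 and 20.7 CPM against 9.76 to 12.5 CPM. Ceruloplasmin (Cp) measured 236 and 173 CPM against 89.1 to 123 CPM, and complement C3 302 and 239 CPM against 142 to 184 CPM.

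The classical inducers were at low counts. Tnf had 40 and 15 counts in replicate 2 and 3 to 18 counts in the others, and Il6 had 1 count in each of the 2 libraries and 0 to 3 counts in the others. Il1a, which is abundant in these cells, measured 208 and 145 CPM against 129 to 164 CPM and did overlap. Of 14 measured type I interferon response genes 2 were higher (14.3%, against 1.64% of all genes), and 6 lay above all others at any fold (42.9% against 20.9%). The 2 were Parp14 (21.4 and 21.8 CPM against 8.65 to 14.1) and Gbp2 (30.4 and 26.8 CPM against 13.3 to 16.9).

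Markers of other cell types were low, and 2 of 3 marker sums overlapped between replicate 2 and the others. Ptprc, the pan-leukocyte marker CD45, had 3 and 1 counts in replicate 2 and 3 to 10 counts in the 5 others, and Lyz2 of myeloid cells had 0 counts in the 7 shSCR libraries. Summed over the list, leukocyte markers lay at 13.3 and 11.6 CPM against 6.6 to 12.2 CPM, endothelial markers at 0.278 and 0.428 CPM against 0.317 to 0.612 CPM, and fibroblast markers at 41.9 and 34.6 CPM against 26 to 33.2 CPM, of which Pdgfra made up most (40.7 and 33 CPM against 25.5 to 32.8 CPM). Most of the leukocyte sum was Cd68, a lysosomal protein that cancer cells also make (12.9 and 10.6 CPM against 5.51 to 11.2 CPM). The fibroblast sum thus lay above all others in replicate 2, and its part in the results was not tested. The epithelial markers of 4T1 were present, with Epcam at 687 and 662 CPM against 582 to 650.3 CPM and Krt8 at 1612 and 1582 CPM against 1665 to 1787 CPM. In bulk RNA, a larger share of cells in a state and more RNA per cell in that state cannot be told apart.

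The lower genes were fewer and differed less, with 4 of the 59 at 2-fold or more in both groups, against 31 of the 168 higher ones. Angptl4 (ENSMUSG00000002289), a secreted inhibitor of lipoprotein lipase, led the named genes with 8.35 and 8.08 CPM against 23.7, 24.6, 14.8, 34.7 and 23 CPM, a fold of 0.41 with aspartate and 0.289 without. Both replicate 2 values were nearly equal and lay below the lowest of the others. The lipid-droplet proteins Plin2 (203 and 213 CPM against 279 to 387) and Hilpda (20.8 and 14.4 CPM against 22.2 to 32.8) lay below all 5 others as well. Angptl4, Hilpda and Plin2 are known targets of both hypoxia and fatty-acid-sensing PPAR factors, and here they lay on the opposite side from the other hypoxia genes.

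Areg, the EGF-receptor ligand amphiregulin, measured 75.5 and 85 CPM against 117 to 182 CPM, and Fosl1, the AP-1 subunit Fra-1, 109 and 107 CPM against 158 to 231 CPM. Sox12, a transcription factor of the SoxC group, measured 6.85 and 9.1 CPM against 12.2 to 16.3 CPM. Other immediate-early genes did not follow Fosl1, the 1 of 28 measured members that was lower (3.57%, against 0.577% of all genes). Ier3, a stress-induced survival gene, was the 1 that was higher (3.57%, against 1.64%), with 342 and 233 CPM against 134 to 173 CPM. The median difference of the list was -0.03. Ccne1, cyclin E1, was the 1 of 32 DNA replication genes that was lower (3.12%, against 0.577% of all genes), with 13.4 and 15.8 CPM against 21.3 to 27.4 CPM. At any fold 14 of the 32 lay below all 5 others (43.8%, against 18.3% of all genes) and 0 above. Their median difference was -0.11.

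Of 57 measured genes in the Hallmark MYC targets V2 set, 10 were lower (17.5%, against 0.577% of all genes) and 1 was higher (1.75%, against 1.64%). The median difference was -0.35, the lowest of the 50 Hallmark sets. In MYC targets V1, 4 of 201 were lower (1.99%) and 0 higher (median -0.18). Bysl, a factor for assembly of the small ribosomal subunit, measured 24.2 and 30.7 CPM against 40.8 to 54.2 CPM. Nop56, a core protein of the snoRNPs that methylate rRNA, measured 127 and 139 CPM against 177 to 241 CPM, and Gnl3, the nucleolar GTPase nucleostemin, 54.1 and 62 CPM against 77.5 to 106 CPM. For these genes both replicate 2 values were under the lowest of the 5 others. Ppan (31.6 and 36.6 CPM against 49.7 to 71.7), Rrs1 (47.1 and 52.8 CPM against 61.6 to 89.6), Rrp9 (24.9 and 33.7 CPM against 42.9 to 55.3) and Nip7 (29.1 and 30.9 CPM against 45.8 to 54.7), all factors of rRNA processing or subunit assembly, were lower too. Myc mRNA lay at 111 and 112 CPM against 122 to 182 CPM, below all others but under 1.5-fold.

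Among single lower genes chosen after their values were seen, Mat2a, which makes S-adenosylmethionine, measured 104 and 124 CPM against 173 to 220.1 CPM, Srm, spermidine synthase, 50.6 and 54.4 CPM against 76.3 to 93 CPM, and Slc1a5, the glutamine transporter ASCT2, 42.3 and 49.7 CPM against 66.8 to 79.4 CPM. Ribosomal protein genes, in contrast, lay at a median difference of -0.03, with 0 of 82 higher and 0 lower. Mitochondrially encoded genes had a median difference of -0.34, all 15 were negative and 7 lay below all others (46.7% against 18.3%), with none at 1.5-fold in both groups.

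The E-box CACGTG was present in the windows of 15 of the 40 lower genes that had one (37.5%), of 8.55% of the higher genes, of 12.6% of genes with at least 5 CPM and of 8.09% of all promoters. The window of Aen, a p53-induced exonuclease that measured 21.4 and 25.4 CPM against 36.6 to 45.7 CPM, is shown as the lower gene with the largest difference that holds the motif (chr7:78895808-78896107, plus strand, GRCm38.p6, E-box in capitals).
Aen: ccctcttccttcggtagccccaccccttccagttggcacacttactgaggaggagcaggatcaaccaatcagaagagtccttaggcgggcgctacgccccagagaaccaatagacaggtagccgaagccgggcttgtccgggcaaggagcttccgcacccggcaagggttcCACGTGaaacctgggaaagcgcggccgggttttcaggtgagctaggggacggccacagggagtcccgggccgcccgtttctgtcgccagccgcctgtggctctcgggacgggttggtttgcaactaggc
The 10 lower MYC targets V2 genes held it in 1 of 9 windows (11.1%), so the lower genes with an E-box were for the most part others.

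**Figure D3:**
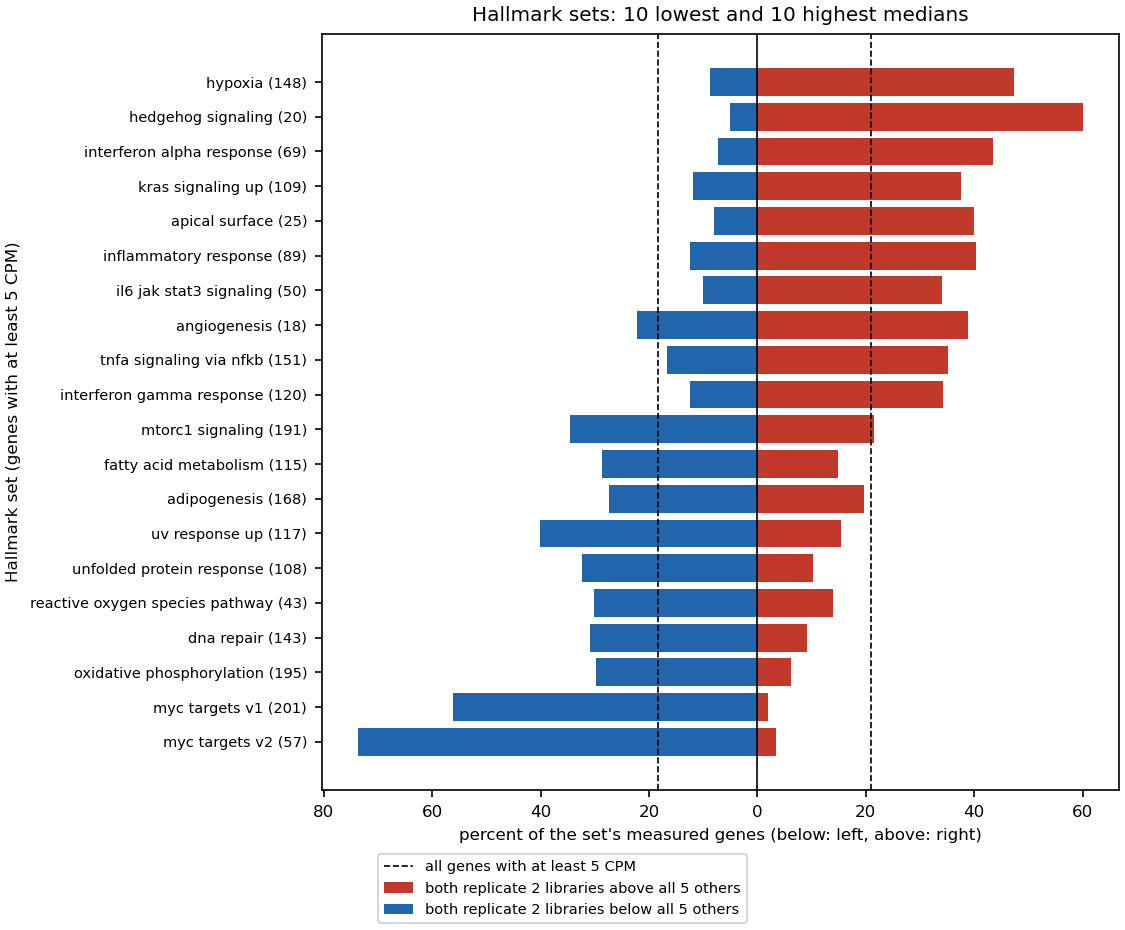
Percent of the measured genes of each Hallmark set for which both replicate 2 libraries lay above (right, red) or below (left, blue) all 5 other shSCR libraries, for the 10 sets with the lowest and the 10 with the highest median difference, with dashed lines at the share over all genes (20.9% and 18.3%). Hypoxia, with the highest median, reaches 47.3% above, hedgehog signaling with its 20 genes reaches 60%, and MYC targets V2 reaches 73.7% below.

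Other stress and growth programs differed little or ran downward. Of 26 measured ATF4 response genes 1 was higher (3.85%, against 1.64% of all genes), 11 lay below all others and the median difference was -0.16. The higher gene was Vldlr, a lipoprotein receptor (12.8 and 9.42 CPM against 3.9 to 4.85 CPM). Oxidant defense genes had a median of -0.29 with 13 of 24 below all others, among them Srxn1, sulfiredoxin (131 and 139 CPM against 200 to 228 CPM). Heat shock genes had a median of -0.28 with 9 of 14 below, among them Hsph1, a cytosolic chaperone (83.1 and 95.3 CPM against 109 to 179 CPM). Over all genes 18.3% lay below all others. Mitosis genes (0.08), cholesterol synthesis genes (0.04), epithelial markers (0.04), mesenchymal genes (0.01) and ER chaperones (-0.09) had medians near that of all genes. Of 18 matrix proteases and inhibitors 2 were higher (11.1%, against 1.64% of all genes). They were the gelatinase Mmp9 (109.7 and 84.8 CPM against 49.3 to 61.4 CPM) and the plasminogen activator Plat (23.1 and 26.6 CPM against 11.8 to 19.1 CPM).

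**Figure D4:**
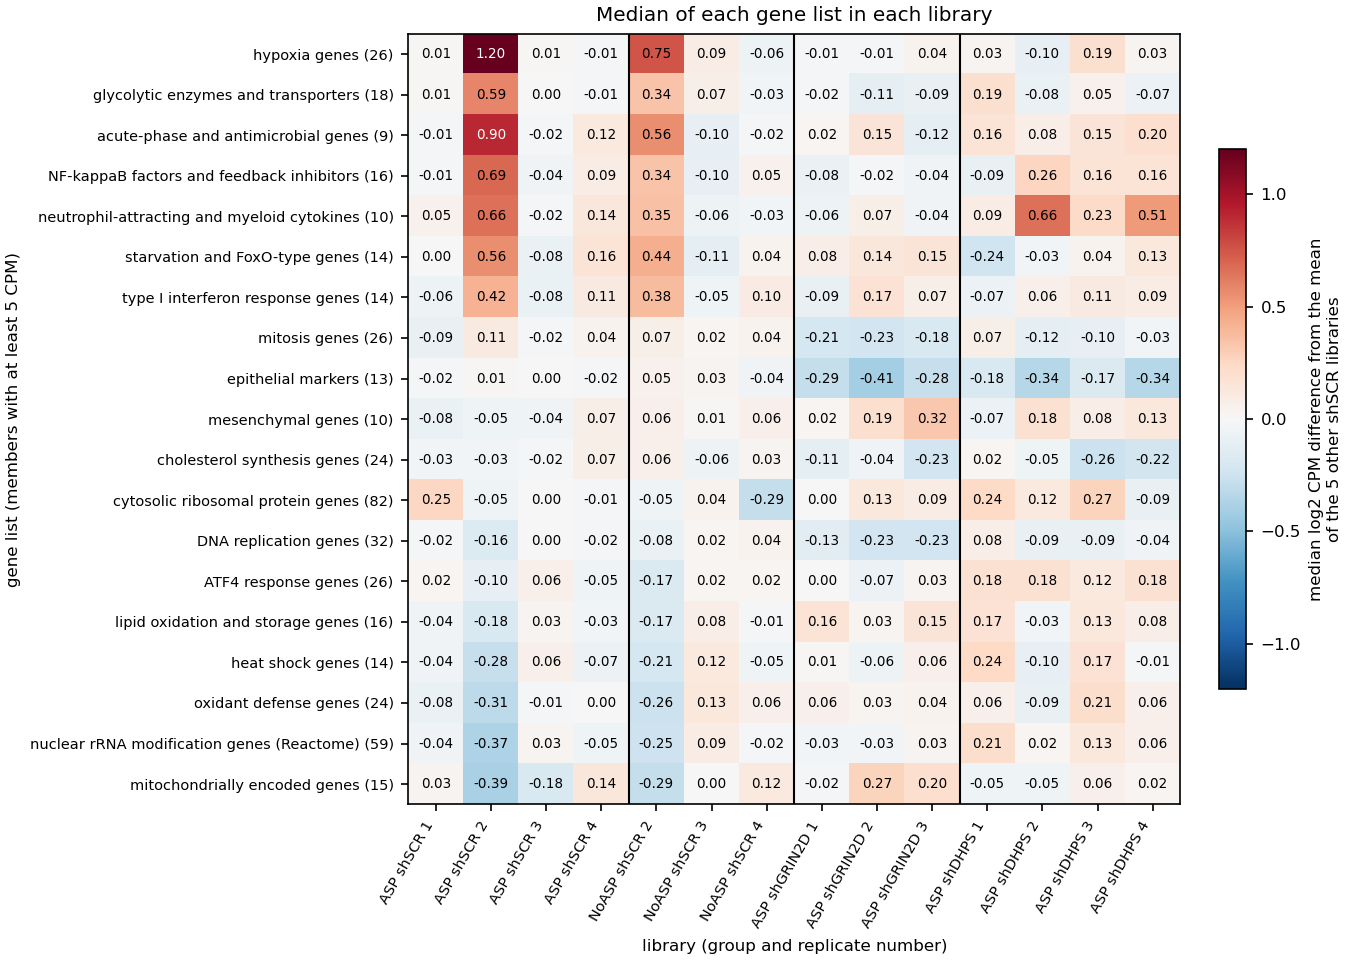
Median log2 CPM difference of each gene list (rows, with the number of measured members) from the mean of the 5 other shSCR libraries, in each of the 14 libraries (columns). Hypoxia genes reach 1.20 and 0.75 in replicate 2 of ASP shSCR and NoASP shSCR and lie between -0.10 and 0.19 in every other library, while the cytokine list is also raised in ASP shDHPS replicates 2 and 4.

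Libraries that took no part in the choice of genes were read for the same state. The 168 higher genes had a median of 0.94 in replicate 2 of ASP shSCR and 0.71 in replicate 2 of NoASP shSCR relative to the 5 others, and between -0.23 and 0.1 in the 7 knockdown libraries. All 7 knockdown libraries lay below both replicate 2 libraries for 153 of the 168 higher genes, and above them for 48 of the 59 lower genes. The genes were chosen for their extreme replicate 2 values, so this position is largely fixed by the choice and is no independent support. The share over all genes was not computed. Replicate 2 of ASP shGRIN2D lay at 0.1 and replicate 2 of ASP shDHPS at -0.04. The cytokine list was an exception, with a median of 0.66 in replicate 2 of ASP shDHPS, equal to that of replicate 2 of ASP shSCR. Cxcl1 (163 CPM), Csf3 (130 CPM), Nfkbiz (41.6 CPM) and Zc3h12a (33.2 CPM) were highest in that library among the 4 ASP shDHPS libraries, and the hypoxia list had a median of -0.10 there.

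Aspartate was then compared within each replicate number. Over the 168 higher genes, ASP minus NoASP had a median of 0.27 on the log2 scale in replicate 2, 0.15 in replicate 3 and 0.16 in replicate 4. Positive differences made up 98.2%, 75% and 79.2% of these genes, against 48.7%, 50.4% and 48.1% of all genes with at least 5 CPM. The 59 lower genes had medians of -0.16, -0.15 and -0.17. The libraries of all these pairs entered the rule, which favored higher genes that were low in replicates 3 and 4. For 113 of the 168 higher genes the smaller difference was the one without aspartate. The medians and shares of these pairs are thus not independent of the choice, and the part of aspartate in them was not tested. The shift was small beside the 0.94 and 0.71 of replicate 2. Lcn2 was higher with aspartate by 0.78, 0.57 and 0.75 in replicates 2, 3 and 4, and Bnip3 differed by 0.69, -0.03 and 0.17.

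In the test of ASP shSCR against NoASP shSCR (edgeR quasi-likelihood test on all 14 libraries), 0 of 19525 genes passed a Benjamini-Hochberg adjusted p of 0.05 (0%), with 424 genes at an unadjusted p under 0.05, and 0 by DESeq2. Without both replicate 2 libraries, 0 genes passed (0%) and 594 had an unadjusted p under 0.05. A replicate block left 2 genes past the threshold (0.0102%), and the same block in a fit of only the 7 control libraries left 64 (0.328%). These 64 included 16 of the 168 higher genes, all up with aspartate, and 1 of the 59 lower genes, which was down. The 168 and 59 genes were chosen from the same libraries. The blocked fit takes equal replicate numbers as pairs, which these data cannot decide, and the chosen replicate 2 libraries are 1 of its pairs. It leaves few libraries per coefficient, so its p-values rest on little replication. Predicted or unnamed genes made up 27 of the 64 and 8 of the 10 with the smallest p, and 20 of the 64 were at 0 counts in 1 or more libraries. Lcn2 rose by 0.71 on the log2 scale in that fit (Benjamini-Hochberg adjusted p = 1.33e-16, edgeR), Nfkbiz by 0.62 (8.74e-09), Cxcl1 by 0.49 (3.93e-08) and Csf3 by 0.47 (1.07e-06). In the fit of all 14 libraries the same 4 genes had adjusted p = 1.

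Replicate 2 of ASP shSCR was 1 of 4 controls for both knockdowns, which share these controls. For ASP shDHPS against ASP shSCR, 824 genes were called in the fit without a block (4.22%), and 566 without both replicate 2 libraries (2.9%), of which 521 were shared. Replicate 2 of NoASP shSCR is no control in this contrast and entered it through the shared estimate of the spread. Leaving out replicate 2 of ASP shSCR alone gave 412 calls, with 23 of the 168 higher genes and 3 of the 59 lower genes. Below, with and without replicate 2 mean with and without both libraries. Among the 168 higher genes, 38 were called with replicate 2 (22.6%) and 39 without it (23.2%), of which 31 were shared. Among genes with at least 5 CPM the called share was 6.95% and 4.84%. With replicate 2 all 38 fell in ASP shDHPS. The rule set ASP shSCR replicate 2 above its group for these genes, so a fall against controls that hold it is favored in advance. Without replicate 2, 32 fell and 7 rose, and the median log2 fold change of the 168 genes went from -0.52 to -0.16. The 3 controls that remained are libraries the rule set below replicate 2, which moves these genes toward a rise.

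Several of these genes missed the threshold with both replicate 2 libraries in the fit and passed it without both. The part of each library in this was not tested. Cxcl1 had a log2 fold change of 0.07 (SE 0.3, adjusted p = 0.932, edgeR) in ASP shDHPS with replicate 2 and rose by 0.70 (SE 0.14, adjusted p = 0.00538) without it. Csf3 went from 0.23 (adjusted p = 0.666) to 0.70 (adjusted p = 0.00401), and Nfkbia from -0.01 (adjusted p = 0.999) to 0.43 (adjusted p = 0.0206). The hypoxia gene Ndrg1 went from -0.23 (adjusted p = 0.693) to 0.42 (adjusted p = 0.0145).

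Others kept their call in both fits. Mmp9 fell by 1.51 with replicate 2 (adjusted p = 9.13e-05, edgeR) and by 1.21 without it (adjusted p = 2.78e-06), and Cx3cl1 fell by 0.83 (adjusted p = 0.00863) and by 0.55 (adjusted p = 0.00269). Ankrd37 fell by 2.33 with replicate 2 (adjusted p = 0.0439) and missed the threshold without it (-0.89, adjusted p = 0.053). Of the 59 lower genes 12 were called in ASP shDHPS with replicate 2 (20.3%) and 13 without it (22%), all upward. The rule set these genes low in replicate 2, which favors a rise while it is a control. Among them Angptl4 rose by 1.34 with replicate 2 (adjusted p = 0.0144, edgeR) and by 1.11 without it (adjusted p = 0.00161).

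For ASP shGRIN2D against ASP shSCR, 226 genes were called (1.16%), and 240 without both replicate 2 libraries (1.23%), of which 189 were shared. Of the 168 higher genes 2 were called with replicate 2 (1.19%) and 10 without it (5.95%), 7 of the 10 down and 3 up. Of the 59 lower genes 1 (1.69%) and 3 (5.08%) were called. Among genes with at least 5 CPM the called share was 1.92% and 2.02%. Leaving out ASP shSCR replicate 2 alone gave 5 of the 168 and 3 of the 59. The median log2 fold change of the 168 genes went from -0.37 to -0.03, and the rule favors a fall while replicate 2 is a control. Mmp9 fell in both fits, by 1.19 (adjusted p = 0.003, edgeR) and by 0.90 (adjusted p = 0.000335). Ccne1 fell by 0.99 (adjusted p = 0.00835) with replicate 2 and by 1.15 (adjusted p = 5.49e-05) without it. Ankrd37 missed the threshold with replicate 2 (-2.58, SE 0.74, adjusted p = 0.113) and fell by 1.15 (SE 0.27, adjusted p = 0.0337) without it. Whether the 2 fits of a knockdown differ was not tested.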

How the data were processed

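mRNA was sequenced from the cytosolic lysate of 4T1 spheroids with a stranded mRNA kit, 14 libraries in 4 groups, with groups and replicate numbers from the sample descriptions. The deposited counts are whole numbers per gene, made by the authors with Trim Galore 0.6.6, FastQC 0.11.9, STAR 2.6.1 on GRCm39 and Salmon 1.4.0, after rounding of its estimates. They kept genes expressed in 2 or more replicates of any condition. Counts of gene copies and of genes that overlap are less certain, since reads shared by similar transcripts are assigned by a model. The table held 19525 genes and no line without a gene, and 0 columns belonged to other samples. The authors also deposited log2 fold changes, p-values, q-values, a ranking score and gene set enrichment scores of their own comparison, which were not used, and the gene set file, from which the Hallmark sets and the Reactome set of nuclear rRNA modification were read.

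Counts were scaled by TMM factors in edgeR 4.0.16 (R 4.3.3), log2 CPM used a prior count of 2, and genes were described by the rule in the report. SDs are over the 5 other shSCR libraries. Group contrasts were tested with edgeR's quasi-likelihood test on all 14 libraries with Benjamini-Hochberg adjustment over all genes, and adjusted p-values in the report are from it. The script was tested on simulated counts with known changes. The labels do not say whether replicates were separate cultures, so p-values measure the spread between samples only. The members, the 22 hand-written lists and the tests were chosen with earlier results of these data known. Named genes were, leaving out predicted genes, the 12 largest differences in each direction and up to 4 genes of each hand-written list that passed the rule, with 8 control genes. Adm, Angptl4's neighbours in lipid storage, the HIF subunits, the ribosome production genes and the further genes that this rule did not give were named after their values were seen, as were 7 added lists. Motifs were searched in 300-base windows on both strands, overlaps included, and a gene counted when any of its windows matched. The sequences are from RefSeq.

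Replicate numbers were checked by correlating the deviations from the group mean, over genes, of libraries with the same number. The 3 pairs of control libraries gave r = 0.589, 0.299 and 0.234, each over 0.1, and a blocked fit stands beside the unblocked one. The first value is the same quantity as the r of both within-group differences in the report, not a separate check. The replicate 2 libraries were chosen for lying apart together, and they enter the group means behind all 3 pairs. These values therefore cannot decide whether the numbers pair the control libraries. For the knockdowns not every pair exceeded 0.1. Alternatives were RLE size factors, library size only, a prior count of 0.5, other filters and folds, filterByExpr, DESeq2 1.42.0, the replicate block, both replicate 2 libraries left out and each library left out in turn. A fit that removed trends with GC content and transcript length was added after the data were seen.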

Additional observations from a re-analysis of the deposited data

Results flagged for a closer look

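Of 44 named genes examined in the 2 groups of 4 libraries, 21 had 1 library far from the 3 others, and in each case it was replicate 2 of ASP shSCR on the high side. Among hypoxia and glycolytic genes these were Ankrd37 at 26.3, Bnip3 at 205, P4ha2 at 21.2, Ero1a at 553, Pdk1 at 107, Aldoc at 31.1, Pfkp at 62.3 and Pfkl at 417 CPM. Among cytokine, NF-κB, protease and stress genes they were Zc3h12a at 57.5, Vcam1 at 79.4, Cxcl1 at 257, Csf3 at 155, Cx3cl1 at 345, Cp at 236, Mmp9 at 109.7, Nfkbia at 128, Parp14 at 21.4 and Ier3 at 342 CPM. The remaining genes were Arrb1 at 28.1, Arhgap29 at 19.8 and Vldlr at 12.8 CPM, the first encoding β-arrestin 1. No named gene had such a library in ASP shDHPS. Chance gives about 1 such library in 20 groups, and the genes were picked because replicate 2 was high in them, so the count is no independent support. Replicate 2 of NoASP shSCR could not be examined this way, since that group has 3 libraries.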

How the results depend on the processing

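Scaling by RLE size factors gave 165 higher and 61 lower genes, library size alone 193 and 43, and a prior count of 0.5 gave 170 and 59, against 168 and 59. These choices shifted the median difference of all genes by at most 0.03 on the log2 scale. Correction for GC content and transcript length, chosen after seeing the data, gave 158 higher (144 shared) and 59 lower genes (45 shared). Counts followed the filter and the fold, with 266 higher and 98 lower genes at a mean of at least 1 CPM, 490 and 229 without a filter, 31 and 4 at 2-fold, and 2141 and 1877 without a fold threshold, which moved the share of higher among apart genes from 74% to 88.6% at 2-fold and to 53.3% without a fold. Ignoring aspartate gave 101 lower genes. Leaving out each library in turn gave 139 to 341 higher and 40 to 163 lower genes. The highest values came without replicate 2 of NoASP shSCR (341 and 163), and 147 lower genes came without replicate 2 of ASP shSCR, because 1 library then stands for both. For the 44 named genes, 500 of 528 values under these alternatives moved by less than the spread between replicates, 28 moved more and 0 turned their direction.

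The replicate block gave 2 calls for ASP shSCR against NoASP shSCR and 64 in the 7 shSCR libraries alone. Leaving out each library gave 0 to 1 calls, with 1 without NoASP shSCR replicate 3. For ASP shDHPS the block gave 2150 calls (with 90 of the 168 higher genes, 88 of them down, against 38) and DESeq2 1398, against 824, and leaving out each library gave 412 to 894, the lowest without replicate 2 of ASP shSCR, and 450 without replicate 3 of ASP shDHPS. For ASP shGRIN2D the block gave 611 and DESeq2 440, against 226, and leaving out each library gave 86 to 208, with 132 without ASP shSCR replicate 4 and 86, 114 and 97 without ASP shGRIN2D replicates 1, 2 and 3. The knockdown numbers were not taken as pairing, since not every pair exceeded 0.1, with r = 0.287, 0.188, 0.208 and 0.076 for ASP shDHPS and r between -0.0876 and 0.0471 for ASP shGRIN2D. In these pairs 6 of 8 and 0 of 6 libraries correlated best with their own number. Causes of these shifts were not tested. Genes under 5 CPM rest on few counts, and their differences are less precise.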

Other observations

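Several gene groups outside the lists above differed in replicate 2, and they were put together after the values were seen. Of 14 measured genes induced by starvation or FoxO factors 6 were higher (42.9%, against 1.64% of all genes), with a median difference of 0.5 on the log2 scale. Ccng2, a cyclin of quiescent cells, measured 141 and 100.4 CPM in replicate 2 with and without aspartate against 42.5 to 62.7 CPM in the 5 others, and Pik3ip1, an inhibitor of PI3 kinase, 11.8 and 10 CPM against 4.17 to 4.95 CPM. Fbxo32, the ubiquitin ligase atrogin-1, measured 27.3 and 24.6 CPM against 9.76 to 16 CPM. Lysine demethylase genes, whose products need oxygen, had a median of 0.26 with 11 of 16 above all others (68.8%, against 20.9% of all genes) and 2 higher (12.5%, against 1.64%), Kdm3a (131 and 96 CPM against 50.6 to 61.1 CPM) and Kdm4b (59.5 and 42.8 CPM against 23 to 27.3 CPM). Of 15 collagen-modifying enzymes 3 were higher (20%, against 1.64%), P4ha1, P4ha2 and Plod2, with a median of 0.25. Of the secreted factors, Apln, the peptide apelin, measured 63.5 and 42.2 CPM against 20 to 26.8 CPM, and Stc1, stanniocalcin 1, 26.1 and 19.8 CPM against 7.23 to 11.5 CPM.

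In the downward direction, 45 of 59 genes of nuclear rRNA modification lay below all 5 others (76.3%, against 18.3% of all genes), with a median of -0.32. Of these genes 2 passed the 1.5-fold rule (3.39%, against 0.577%). Of 16 lipid oxidation and storage genes 9 lay below all others (56.2%, against 18.3% of all genes) and 1, Angptl4, passed the rule (6.25%, against 0.577%), with a median of -0.19. EGF-receptor ligands had a median of -0.25 over 4 measured genes, and subunits and regulators of HIF 0.04 over 5. The nuclear RNAs Malat1 (38.1 and 36.9 CPM against 23.2 to 61.4 CPM) and Neat1 (131 and 119.6 CPM against 95.5 to 309 CPM) overlapped between replicate 2 and the others, and squamous and stress keratin genes had a median of -0.11.

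The higher genes had longer transcripts than the lower ones, with a median longest transcript of 4259 bases against 2812 and 3470 bases over all genes. Over 3 equal groups by transcript length the median difference of replicate 2 was -0.07 in short, -0.02 in middle and 0.09 in long transcripts, and over 3 groups by GC content it was 0.01, 0 and -0.01. The part of transcript length in the lists above was not tested beyond the correction given with the processing.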
